A study of Mus musculus with 15 samples.

Results

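The cytoplasmic ribosomal protein genes were taken as all gene symbols in the deposited expression table that start with Rpl or Rps followed by a digit, or with Rplp, with the S6 kinase genes (Rps6k) left out. The rule uses names alone and no measured value. It found 91 of the 10222 symbols listed, with 101 of 12698 transcripts: 46 genes of the large subunit, 30 of the small subunit, 4 paralogs (Rpl7l1, Rpl22l1, Rpl36al and Rps27l), 10 pseudogene or retrogene copies that carry a ribosomal protein symbol, and Rps19bp1, which by its name encodes a binding partner of Rps19 and not a subunit. Ribosomal protein genes such as Rpsa, Fau and Rack1 were also listed but fall outside the naming rule, and they are given separately.

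The study compared stromal cells of white adipose tissue (WAT) that express the alarmin IL-33 with other stromal, endothelial and epithelial cells. All 15 libraries came from C57BL/6 mice heterozygous for an Il33-citrine reporter, in which a fluorescent protein is made under the control of the Il33 locus, and no group was treated or carried a further allele. Each of the 5 populations was sorted directly from tissue in 3 independent experiments: Il33-citrine-positive and Il33-citrine-negative mesenchymal stromal cells of mesenteric WAT (Il33+ and Il33- WAT-MSC, gated as CD45-negative cells with PDGFRα, CD34, Sca1 and podoplanin), lung Il33+ MSC, CD31+ WAT endothelial cells and Epcam+ lung epithelial cells. RNA was amplified before library preparation, and the number of mice behind each library is not given in the sources used here.

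Levels are RPKM, reads scaled by transcript length and by the mapped reads of the library, summed over the transcripts of a symbol; read counts behind single values were not used here, so no counting interval is given. Alignments ranged from 42711843 to 60773158 per library. The labelled populations carried their defining markers: the summed level of 8 epithelial markers was 162043 to 209514 RPKM in the epithelial libraries and at most 543 in the others, and that of 7 endothelial markers was 463 to 516 RPKM in the endothelial libraries and at most 64.9 elsewhere. The 7 stromal markers summed to 1705 to 3263 RPKM in the endothelial libraries, beside 3801 to 7751 in the 9 MSC libraries, so stromal marker RNA was present in the endothelial libraries as well. Because these are bulk samples, fewer cells of a type and less RNA per cell cannot be told apart.

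Each ribosome is built from a large and a small subunit, and most of their proteins are present in 1 copy per ribosome, so cells make the proteins in matched amounts. Their messenger RNAs are short, abundant and stable, and most start with a cytosine followed by a run of pyrimidines, the 5′ terminal oligopyrimidine (TOP) motif, through which mTORC1 signalling adjusts their translation. A cell's content of these messenger RNAs is known to rise with growth and biosynthetic load. Some subunit genes have a closely related paralog whose level differs between tissues.

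The start sites of a few of these genes show the pyrimidine run that the family shares. In the RefSeq promoter table, which is built on GRCm38.p6 (mm10), 65 of the 91 genes were matched. A tract was searched on the coding strand as a C followed by at least 4 further C or T bases, starting within 10 bases of the annotated start. Of the 65 promoters 38 (58.5%) held one, beside 34.4% of all 27025 genes in the table and 36.7% of the 7693 other genes listed in these data. Each line gives 30 bases on the coding strand, 15 of them before the annotated start, 5′ to 3′, with the tract in capitals. The first 5 genes show a canonical large or small subunit start, and the last 6 are those on which the comparisons turn.
Rpl13a (chr7:45128731-45128760, minus strand): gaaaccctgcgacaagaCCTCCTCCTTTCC
Rpl27a (chr7:109519180-109519209, plus strand): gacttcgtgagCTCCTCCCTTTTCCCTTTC
Rpl35 (chr2:39005117-39005146, minus strand): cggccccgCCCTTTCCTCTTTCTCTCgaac
Rps6 (chr4:86857353-86857382, minus strand): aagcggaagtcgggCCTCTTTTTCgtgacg
Rpl28 (chr7:4792950-4792979, plus strand): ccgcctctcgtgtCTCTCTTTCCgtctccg
Rpl36a (chrX:134585639-134585668, plus strand): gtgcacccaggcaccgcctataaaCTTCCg
Rpl22l1 (chr3:28805493-28805522, plus strand): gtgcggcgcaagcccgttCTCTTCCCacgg
Rps12 (chr10:23787195-23787224, minus strand): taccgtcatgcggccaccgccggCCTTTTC
Rps27l (chr9:66946071-66946100, plus strand): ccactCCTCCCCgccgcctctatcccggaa
Rps4x (chrX:102189377-102189406, minus strand): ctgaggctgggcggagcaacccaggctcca
Rpl41 (chr10:128549154-128549183, minus strand): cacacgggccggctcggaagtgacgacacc

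Rps4x and Rpl41 showed no tract in this window at the annotated start. Over the whole 300 bases of promoter (250 before and 50 after the start), the letters CCGGAAG were found on either strand in 24 of the 65 promoters (36.9%), beside 9.93% of all genes in the table and 19.3% of the other listed genes. GGGCGG was found in 60%, beside 38.2% and 69.3% of those sets, TATAAA in 13.8%, beside 15.7% and 9.13%, and CACGTG in 9.23%, beside 8.09% and 11.7%. These are matches of letters, and binding was not measured.

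The 91 genes spanned a wide range of levels. The mean over the 15 libraries ran from 2.10 to 410 RPKM, with a median of 60.1, and the median was 60.7 RPKM for the large subunit, 76.8 for the small subunit, 44.6 for the copies and 16.6 for the paralogs. Rpl41, which encodes a very short basic protein of the large subunit, was highest at 410 RPKM, followed by the copy Rpl31-ps12 at 290, Rpl10 (a late-joining protein of the large subunit) at 265, Rpl4 (which lines the exit tunnel) at 190 and Rps23 (at the decoding centre) at 157. The lowest were Rpl34 at 2.10, Rpl7l1 at 2.46, Rps19bp1 at 2.67, Rpl30 at 2.83 and Rpl32l at 5.06 RPKM. Of the 91 genes 89 stood above 0 in all 15 libraries.

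Several canonical genes were listed at low values beside a copy listed at high values. Rpl34 ran from 0 to 5.77 RPKM while its processed copy Rpl34-ps1 had a mean of 39.6. The copy stood above the parent gene in every library for Rpl31-ps12 over Rpl31 (ratio 4.86 to 7.88), Rpl37rt over Rpl37 (4.30 to 10.4) and Rps15a-ps6 over Rps15a (4.69 to 18.6). Rps27rt over Rps27 was 1.16 in all 15 libraries with a coefficient of variation (CV) of 0.0555%, and 98.6% of the 50-base windows of Rps27 also occur in Rps27rt, so the values are given as 1 measurement. The 3 listed transcripts of Rps24 likewise held the fixed shares 70.6%, 21.7% and 7.67% of its RPKM, with no isoform information of their own. Of the 85 genes matched to a transcript sequence, 50 shared at least 50% of their 50-base windows with transcripts of other genes, and the values of the copies and of their parent genes are therefore uncertain.

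As deposited, the levels of these genes spanned a narrow range between populations. The ratio of the highest to the lowest population mean had a median of 1.64 over the 91 genes, from 1.20 to 7.24, and was under 2 for 79 of them. For the 7585 genes with at least the mean level of the lowest of the 91, the median ratio was 2.77 and 2266 were under 2. The CV over the 15 libraries had a median of 32.4%, beside 51.3% for those 7585 genes. Those genes had a median level of 6.23 RPKM, beside 60.1 for the 91, and no set of equal level was taken. With median-ratio scaling the median ratio was 1.84, beside 2.89 over 7510 genes, and 61 of the 91 and 2141 of the 7510 were under 2. The largest ratio belonged to Rpl34, whose values are close to 0. No test was run on these spreads.

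The population in which the genes were lowest was in most cases Il33- WAT-MSC. This held for 65 of the 91 genes, beside 1062 of the 7585 genes. WAT endothelial cells were lowest for 12 genes, lung epithelial cells for 9, lung Il33+ MSC for 3 and Il33+ WAT-MSC for 2. The highest population was more evenly spread, with 31 genes in Il33+ WAT-MSC, 27 in lung Il33+ MSC, 16 each in endothelial and epithelial cells, and 1 in Il33- WAT-MSC.

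Summed over the 91 genes, Il33+ WAT-MSC held 7023, 7572 and 7853 RPKM and Il33- WAT-MSC 3785, 5848 and 6191, so all 3 Il33- libraries lay below all 3 Il33+ libraries. Lung Il33+ MSC held 5945, 6446 and 9611 RPKM, endothelial cells 4829, 4906 and 9908, and epithelial cells 5815, 6746 and 7471, and these 3 populations overlapped one another. As mean ± SD (n = 3) the sums were 7483 ± 422, 5275 ± 1302, 7334 ± 1988, 6548 ± 2910 and 6677 ± 830 RPKM in that order. The spread within lung Il33+ MSC and endothelial cells came from 1 library in each: replicate 3 was the highest of its population for 88 of the 91 genes in lung Il33+ MSC and for 83 in endothelial cells, and replicate 1 was the lowest for 86 in Il33- WAT-MSC.

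RPKM depends on what else a library holds, which matters most for the epithelial cells. The 91 genes made up 2.22% of all summed RPKM in epithelial cells, and 5.64% ± 0.13 (SD, n = 3) once Scgb1a1, the abundant secretory protein of club cells, was left out. In the other populations the share was 4.39% in Il33+ WAT-MSC, 3.20% in Il33- WAT-MSC, 4.39% in endothelial cells and 3.91% in lung Il33+ MSC. The values were therefore also rescaled so that the median ratio of 8365 genes to their geometric mean over the 15 libraries was equal in all of them (median-ratio scaling).

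With median-ratio scaling, Il33- WAT-MSC still held the least, at 4142, 4699 and 4880 scaled RPKM, and Il33+ WAT-MSC held 6210, 6919 and 6518. Epithelial cells moved to the top, at 8490, 7084 and 7695, and overlapped lung Il33+ MSC at 5682, 5716 and 8442. Endothelial cells stood at 6625, 4622 and 7634, of which replicate 2 lay within the Il33- range. Il33- WAT-MSC were now lowest for 76 genes, and epithelial cells were highest for 51, beside 18 in endothelial cells, 15 in lung Il33+ MSC and 7 in Il33+ WAT-MSC.

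**Figure D1:**
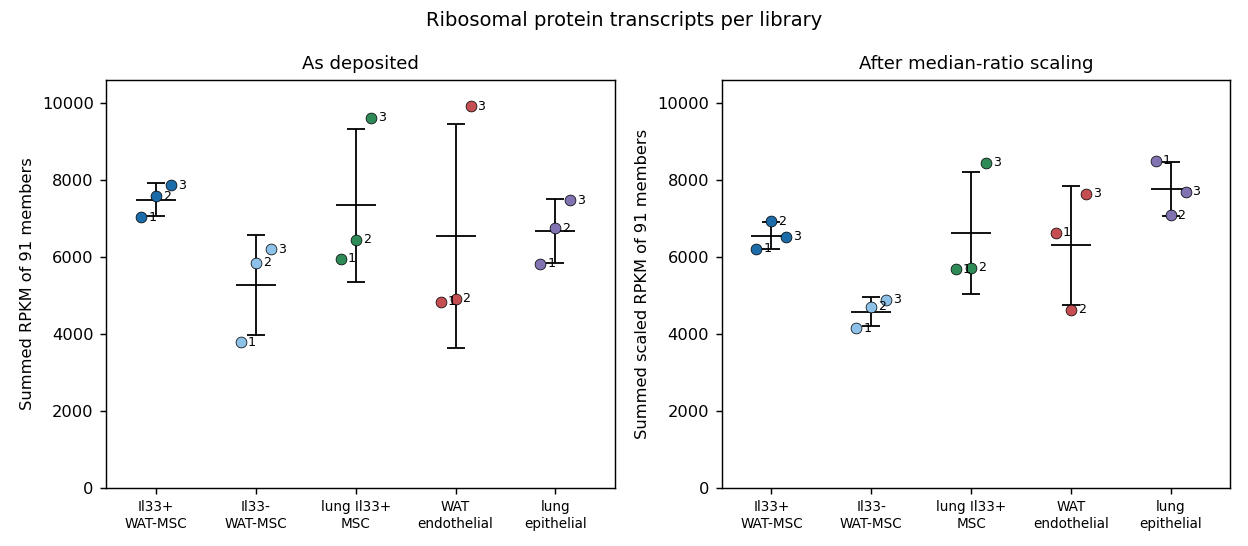
Summed level of the 91 genes in each library by population, as deposited (RPKM) and with median-ratio scaling (scaled RPKM), with points for the 3 libraries and bars for the mean and SD. The 3 Il33- WAT-MSC libraries lie below the 3 Il33+ WAT-MSC libraries on both scales (3785 to 6191 against 7023 to 7853 as deposited), and the epithelial mean moves from 6677 to 7756 with scaling.

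The levels of these genes went up and down together over the libraries. Across the 15 libraries the correlation of log2 levels had a median Pearson r of 0.60 over all pairs of the 91 genes, with quartiles of 0.41 and 0.74, beside 0.21 for pairs of 2817 other genes with at least 5 RPKM in at least 12 libraries. With median-ratio scaling the medians were 0.53 and 0.04. These values are a description, because all points share the scale of their library and the libraries fall into populations. Rps7, Rps28 and Rps24 were among the genes that followed the median of the family most closely (r of 0.93, 0.93 and 0.92), and Rps19bp1 (-0.18), Rplp0 (0.24), Rpl12 (0.27) and Rpl30 (0.27) least.

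**Figure D2:**
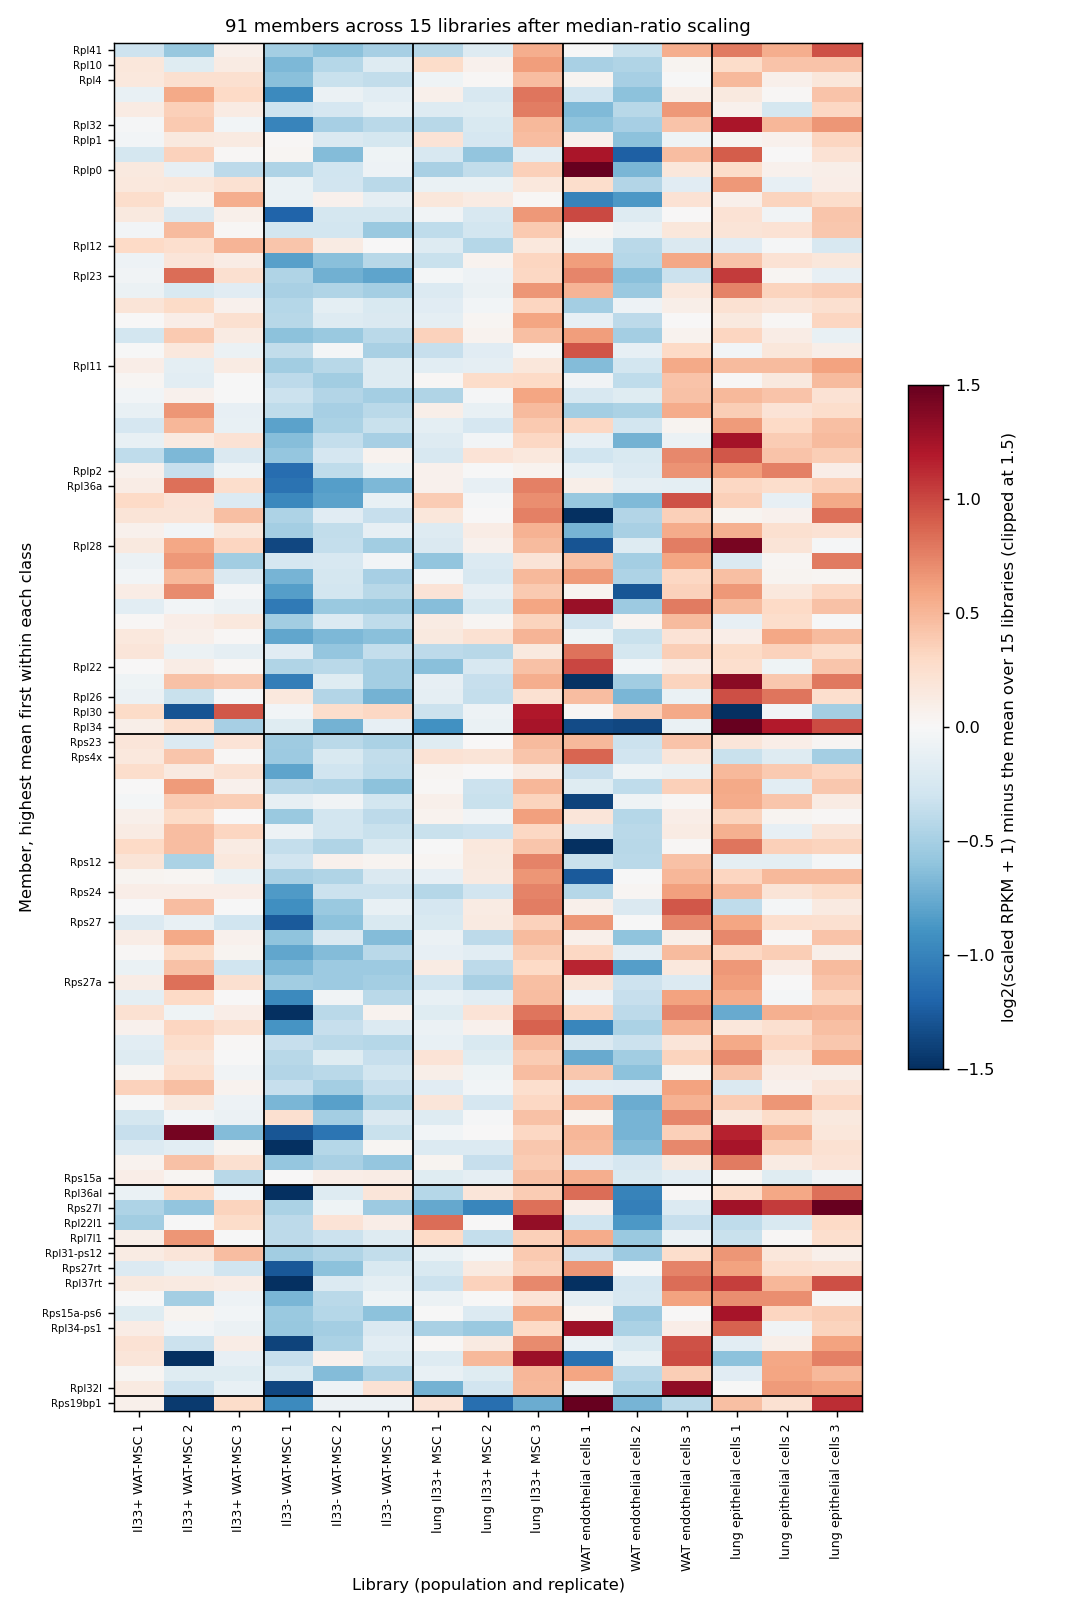
Log2 level (scaled RPKM + 1, after median-ratio scaling) of each of the 91 genes relative to its own mean over the 15 libraries (colour, limited to 1.5 in either direction), with genes in rows grouped by class (some rows labelled) and libraries in columns grouped by population. The Il33- WAT-MSC columns are mostly blue, and on this scale replicate 1 is the lowest of its population for 61 genes and replicate 3 of lung Il33+ MSC the highest of its population for 87.

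The first comparison asked how the Il33+ and Il33- stromal cells of the same fat depot differ. Ribosomal protein genes stood higher in Il33+ WAT-MSC, by a median of 0.54 on the log2(RPKM + 1) scale on which all fold changes here are given, with an interquartile range of 0.35 to 0.70, while the median over all 8448 genes tested was -0.01. Of the 91 genes 85 had a positive fold change (49.4% of all genes) and 49 exceeded 0.5 (14.7% of all genes). In 48 genes the lowest Il33+ library lay above the highest Il33- library, beside 8.84% of all genes, and no gene lay wholly in the other direction, beside 8.65%.

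No single gene of the 91 passed an adjusted p of 0.05 in limma, where 0.923% of all genes passed as higher and 0.651% as lower. At an unadjusted p under 0.05 the limma fit held 34 of the 91 as higher and 0 as lower, beside 6.19% and 5.41% of all genes. With median-ratio scaling 1 gene passed the adjusted threshold (1.39% of all genes did as higher), 53 passed the unadjusted one (7.45%), 58 did not overlap (9.88%), and the median was 0.52.

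Both subunits took part. Of the 30 small subunit genes 19 lay wholly higher in Il33+ WAT-MSC, beside 8.84% of all genes, with a median of 0.61. Of the 46 large subunit genes 24 did so, with a median of 0.47. Among the copies it was 4 of 10 (median 0.47) and among the paralogs 1 of 4 (median 0.36). Outside the naming rule, the log2 differences were 0.71 (Fau, the small subunit protein fused to a ubiquitin-like peptide), 0.58 (Rack1, a scaffold on the small subunit) and 0.55 (Rpsa), and none of these passed the threshold.

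Rpl36a, a protein of the large subunit encoded at chrX:134585654-134588062, had the largest difference. It stood at 54.5, 87.2 and 64.7 RPKM in Il33+ WAT-MSC and at 18.4, 30.6 and 34.8 in Il33- WAT-MSC, without overlap. Its log2 difference was 1.29 (SE 0.28), with an adjusted p of 0.0509 in limma, and 1.27 with median-ratio scaling, where the adjusted p was 0.0178. It is the 1 gene that passed with scaling.

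The next largest differences among the genes without overlap, chosen after their values were seen, were in Rpl28, Rpl23 and Rps27a. Rpl28 stood at 51.2, 67.7 and 62.0 RPKM in Il33+ and at 13.9, 39.5 and 35.9 in Il33- WAT-MSC, a log2 difference of 1.11 (adjusted p 0.197, limma). Rpl23, which lies at the mouth of the exit tunnel, stood at 72.1, 130 and 94.2 RPKM against 44.1, 49.4 and 48.0, a difference of 1.01 (adjusted p 0.0811, limma). Rps27a, made as a fusion with ubiquitin, stood at 75.1, 120 and 87.9 against 39.0, 52.2 and 54.6, a difference of 0.93 (adjusted p 0.110, limma). A gene with overlapping libraries and a difference of similar size is left out of this order. At the other end were Rps15a-ps4 (-0.34), Rpl30 (-0.21), Rps15a (-0.16), Rpl18 (-0.15) and Rpl22l1 (-0.04).

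The size of the shift rested partly on replicate 1 of Il33- WAT-MSC, in which 7.41% of transcripts were listed at 0. Without it the median was 0.31 (all genes -0.12), 77 of the 91 genes were positive, 48 lay wholly higher (10.4% of all genes) and 2 wholly lower (22.1%). In that fit 16 had an unadjusted p under 0.05 in limma, with no share over all genes computed. With scaling and without that replicate 61 did not overlap, beside 14.8% of all genes. Within the sequencing lanes given by the labels, the summed level was 7023 and 7572 RPKM against 3785 and 5848 in lane 1, and 7853 against 6191 in lane 2, so the order held in both.

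Other measures moved with the Il33+ and Il33- groups. The summed level of 7 macrophage markers was 6.52 to 15 RPKM in Il33+ and 17.0 to 39.1 in Il33- WAT-MSC, with 3 and 2 of the 7 markers under 0.5 RPKM in all libraries, and that of 7 stromal markers was 4857 to 6355 and 3801 to 4970, with overlap. The 5 mesothelial markers summed to 25.5 to 106 RPKM in Il33+ and 0.03 to 22.3 in Il33- WAT-MSC, without overlap and with none under 0.5 in all libraries of either. Short transcripts also had a higher median log2 difference: 0.11 for 620 other genes under 1000 bases, beside -0.02 for 7642 of 1000 bases or more. The shares not overlapping as higher were near each other, at 8.55% and 8.37%. The 84 short genes with at least 20 RPKM had a median of 0.30 with 19.0%, and genes of 1000 bases or more at that level were not set beside them. The part of these measures in the result was not tested.

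**Figure D3:**
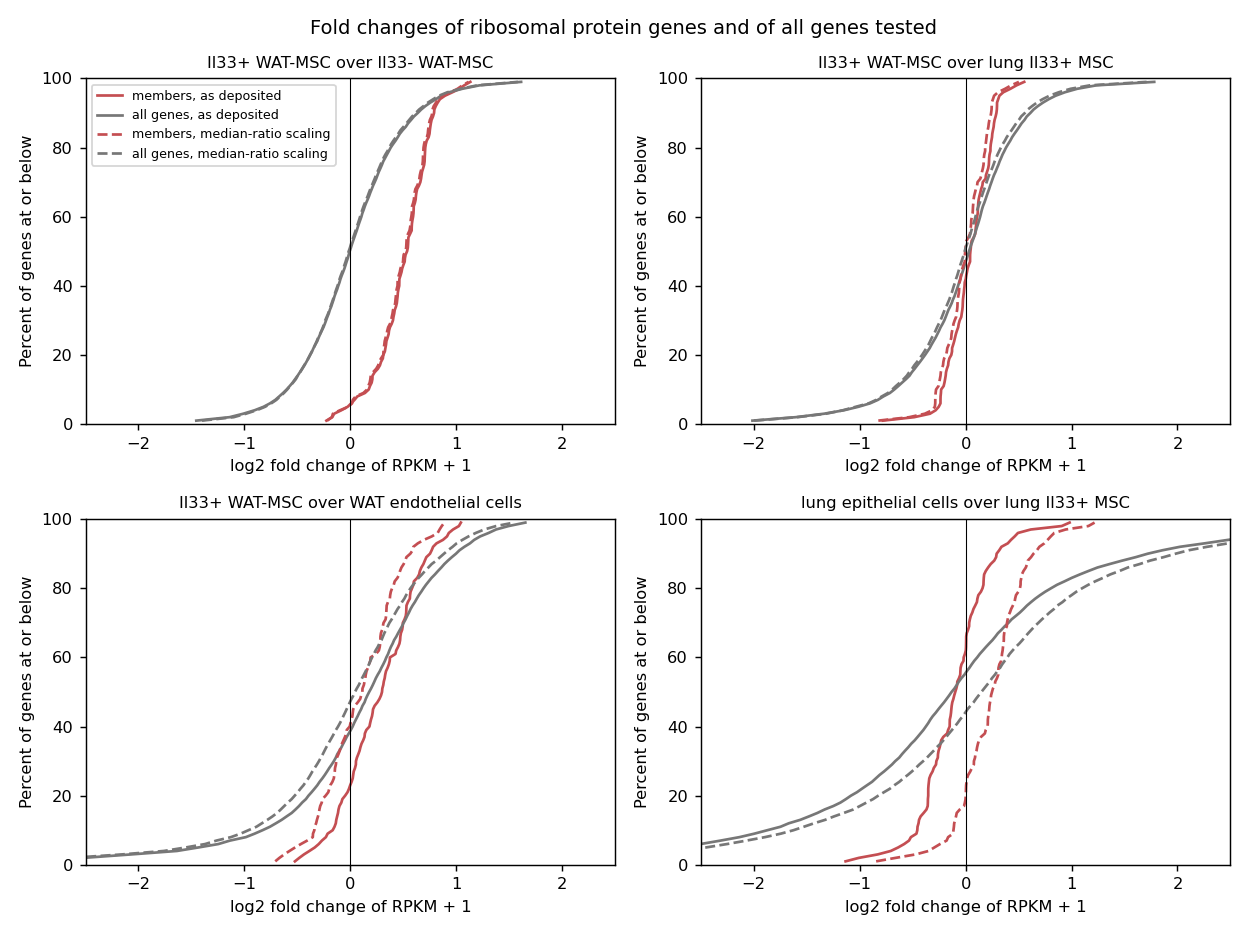
Cumulative percent of genes at or below each difference in log2(RPKM + 1), for the 91 genes and for all genes tested in each of the 4 comparisons, as deposited and with median-ratio scaling. The 91 genes are shifted to a median of 0.54 in Il33+ over Il33- WAT-MSC, and in the other comparisons as deposited their medians are 0.05, 0.30 and -0.10.

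The second comparison asked how Il33+ stromal cells of fat and lung differ, and it shares the Il33+ WAT-MSC libraries with the first and the third. No ribosomal protein gene passed the adjusted threshold in limma in either direction, where 2.5% of all genes passed as higher and 3.5% as lower in Il33+ WAT-MSC. At an unadjusted p under 0.05 in that fit 1 gene was higher, beside 8.51% of all genes, and 0 were lower. The median log2 difference was 0.05, beside 0.03 over all genes, and with median-ratio scaling -0.0037.

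The 1 gene that did not overlap between the tissues, beside 12.1% of all genes, was Rpl12, which sits at the base of the ribosomal stalk. It stood at 100 (replicate 1), 93.9 and 124 RPKM in Il33+ WAT-MSC and at 65.6, 60.2 and 91.6 in lung Il33+ MSC, a log2 difference of 0.56 (SE 0.21, adjusted p 0.198 in limma). Rpl22l1 was lower in fat, at 11, 15.6 and 21.2 against 27.5, 16.2 and 42.5 RPKM, with overlap (-0.76, adjusted p 0.292 in limma). Without replicate 3 of lung Il33+ MSC, the library highest for most of the family, the median moved to 0.26 and 39 genes lay wholly higher in fat, beside 18.4% of all genes. Without replicate 1 of lung Il33+ MSC the median was -0.09. Epithelial markers summed to 543 RPKM in that replicate 3 and to 179 and 231 in the other two. The macrophage markers summed to 195 to 242 in lung Il33+ MSC against 6.52 to 15 in Il33+ WAT-MSC, and the mesothelial ones to 4.28 to 7.7 against 25.5 to 106, and their part in the result was not tested.

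The third comparison set Il33+ WAT-MSC against the endothelial cells of the same tissue. No gene of the 91 passed the adjusted threshold in limma, where 0.565% of all genes passed as higher and 3.34% as lower, and 3 were higher at an unadjusted p under 0.05 (7.89% of all genes). The median log2 difference was 0.30, beside 0.18 over all genes, and 70 of the 91 were positive, beside 61.1%. With median-ratio scaling the medians were 0.11 and 0.04.

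In Il33+ WAT-MSC 5 genes lay wholly higher, beside 13% of all genes, among them Rpl12, Rpl36a, Rpl6 and Rps27a. Rpl12 stood at 100 (replicate 1), 93.9 and 124 RPKM against 48.7, 57.5 and 80 in endothelial cells, a log2 difference of 0.78 (SE 0.28, adjusted p 0.207 in limma). Rps27 and its near-identical copy Rps27rt lay wholly lower (2 symbols holding 1 measurement, beside 10.2% of all genes). Rps27 stood at 77.2, 79.8 and 77.0 RPKM against 91.2, 83.5 and 172 (-0.48).

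The endothelial libraries differed among themselves more than these differences. Without endothelial replicate 3 the median was 0.59, beside 0.36 over all genes. In that fit 38 genes had an unadjusted p under 0.05 in limma, with no share over all genes computed. There 1 gene (Rpl10a) passed the adjusted threshold as higher, beside 134 of all 8115 genes tested. In the same libraries 55 lay wholly higher in Il33+ WAT-MSC, beside 27% of all genes. Without endothelial replicate 1 the median was 0.10 and 7 lay wholly higher, beside 16.4%. Without endothelial replicate 2 the median was 0.14, and with scaling it turned to -0.09, with 42 of the 91 positive. Erythroid markers summed to 19.9, 232 and 411 RPKM and macrophage markers to 8.84, 139 and 52.4 in endothelial replicates 1 to 3, and 10.9% of transcripts were listed at 0 in replicate 1; the part of these in the result was not tested.

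The fourth comparison set lung epithelial cells against lung Il33+ MSC, the pair with the largest share of called genes among the 4 comparisons run, and shares the lung Il33+ MSC libraries with the second. Few ribosomal protein genes were called on the deposited scale, and whether their levels were equal was not tested. As deposited, 0 of the 91 were higher and 3 were lower in epithelial cells at an adjusted p under 0.05 in limma, where 18.5% of all genes were higher and 24.4% lower. The median log2 difference was -0.10, with an interquartile range of -0.34 to 0.09, beside -0.13 over all genes with -0.85 to 0.58. In 5 genes the libraries did not overlap as lower (31.2% of all genes) and in 0 as higher (22.2%).

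The direction of this comparison depended on the scale and on 1 library. Without lung Il33+ MSC replicate 3 the median as deposited was 0.079, with 55 of the 91 positive. Median-ratio scaling moved the median of all genes from -0.13 to 0.15 and that of the 91 from -0.10 to 0.25, with 73 of the 91 positive (55.8% of all genes). With it 6 genes were higher and 1 was lower at an adjusted p under 0.05 in limma, beside 24.7% and 19.3% of all genes, and 11 lay wholly higher and 2 wholly lower, beside 30.4% and 23.9%. Relative to the median of the family itself, taken as 0 in each library, 3 were higher and 3 lower, beside 1814 and 1978 of all 9221 genes. Quantile normalization gave a median of 0.60, beside -0.05 over all genes, with 43 higher and 0 lower. Of all 9209 genes tested on that scale 2007 were higher and 2215 lower. In the sums, lane 1 held 5815 against 5945 RPKM and lane 2 held 6746 and 7471 against 6446 and 9611.

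Rps4x, the X-linked small subunit protein at chrX:102184941-102189391, had the smallest adjusted p of the 3 genes lower in epithelial cells. It stood at 75.2, 115 and 93.6 RPKM in epithelial cells and at 168, 178 and 210 in lung Il33+ MSC, and in the WAT populations it ranged from 86.3 to 203. The epithelial libraries lay below all the lung stromal ones, in lane 1 (75.2 against 168) and in lane 2 (115 and 93.6 against 178 and 210). The log2 difference was -0.98 (SE 0.22, adjusted p 0.00607 in limma) as deposited and -0.62 (adjusted p 0.0191) with median-ratio scaling. Quantile normalization gave -0.03.

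Rps12, a small subunit protein at chr10:23785183-23787383, stood at 57.7, 79.4 and 88.2 RPKM in epithelial cells and at 98.9, 115 and 177 in lung Il33+ MSC, without overlap. Its log2 difference was -0.77 (SE 0.27, adjusted p 0.0472 in limma) as deposited, -0.41 (adjusted p 0.165) with scaling and -0.52 (adjusted p 0.152) without lung Il33+ MSC replicate 3. The call was lost in 4 of the 6 fits as deposited with 1 library left out, also without lung Il33+ MSC replicate 2 and without epithelial replicate 1 or 2 (adjusted p 0.0932, 0.112 and 0.0857 in limma).

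The paralogs Rpl22l1 and Rps27l moved in opposite directions. Rpl22l1 (chr3:28805508-28807424), a paralog of the large subunit gene Rpl22, whose protein is known to hold Rpl22l1 expression down, stood at 7.35, 11.5 and 17.3 RPKM in epithelial cells and at 27.5, 16.2 and 42.5 in lung Il33+ MSC, with a small overlap. The difference was -1.16 (SE 0.39, adjusted p 0.0365 in limma), -0.83 (adjusted p 0.0777) with scaling and -0.84 (adjusted p 0.130) without lung Il33+ MSC replicate 3. Rps27l (chr9:66944624-66949522), a paralog of Rps27 and a known target gene of p53, stood at 23.4, 28.0 and 41.1 RPKM in epithelial cells and at 7.95, 7.25 and 28.3 in lung Il33+ MSC, where replicate 3 reached into the epithelial range. The difference was 1.26 (SE 0.46, adjusted p 0.0530 in limma), 1.60 (adjusted p 0.0128) with scaling and 1.85 (adjusted p 0.00134) without that replicate.

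The ratio of a paralog to its partner is taken within a library and does not depend on its scale. Rps27l over Rps27 was 0.351 ± 0.091 (SD, n = 3) in epithelial cells, 0.229 ± 0.084 in Il33- WAT-MSC, 0.178 ± 0.083 in Il33+ WAT-MSC, 0.145 ± 0.091 in lung Il33+ MSC and 0.095 ± 0.020 in endothelial cells. The epithelial libraries (0.285 to 0.456) lay above those of lung Il33+ MSC (0.074 to 0.248), and the 3 stromal populations overlapped. Rps27 was taken here without Rps27rt, with which it shares a single measurement, so ratios to their sum would be lower in every population. Rpl22l1 over Rpl22 was 1.98 ± 0.86 in lung Il33+ MSC, 1.38 ± 0.30 in Il33- WAT-MSC, 0.918 ± 0.265 in Il33+ WAT-MSC, 0.793 ± 0.156 in epithelial cells and 0.534 ± 0.159 in endothelial cells. Here the epithelial libraries (0.614 to 0.897) lay below those of lung Il33+ MSC (1.18 to 2.89). No test was run on the ratios.

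The other paralogs showed smaller differences. Rpl36al over Rpl36a was 0.706 ± 0.077 in Il33+ WAT-MSC, 0.813 ± 0.263 in lung Il33+ MSC, 1.01 ± 0.52 in endothelial cells, 1.08 ± 0.19 in epithelial cells and 1.20 ± 0.60 in Il33- WAT-MSC (SD, n = 3), with overlap between neighbours in this order. Rpl7l1 stayed low beside Rpl7, at a ratio of 0.031 in epithelial cells to 0.052 in Il33+ WAT-MSC.

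**Figure D4:**
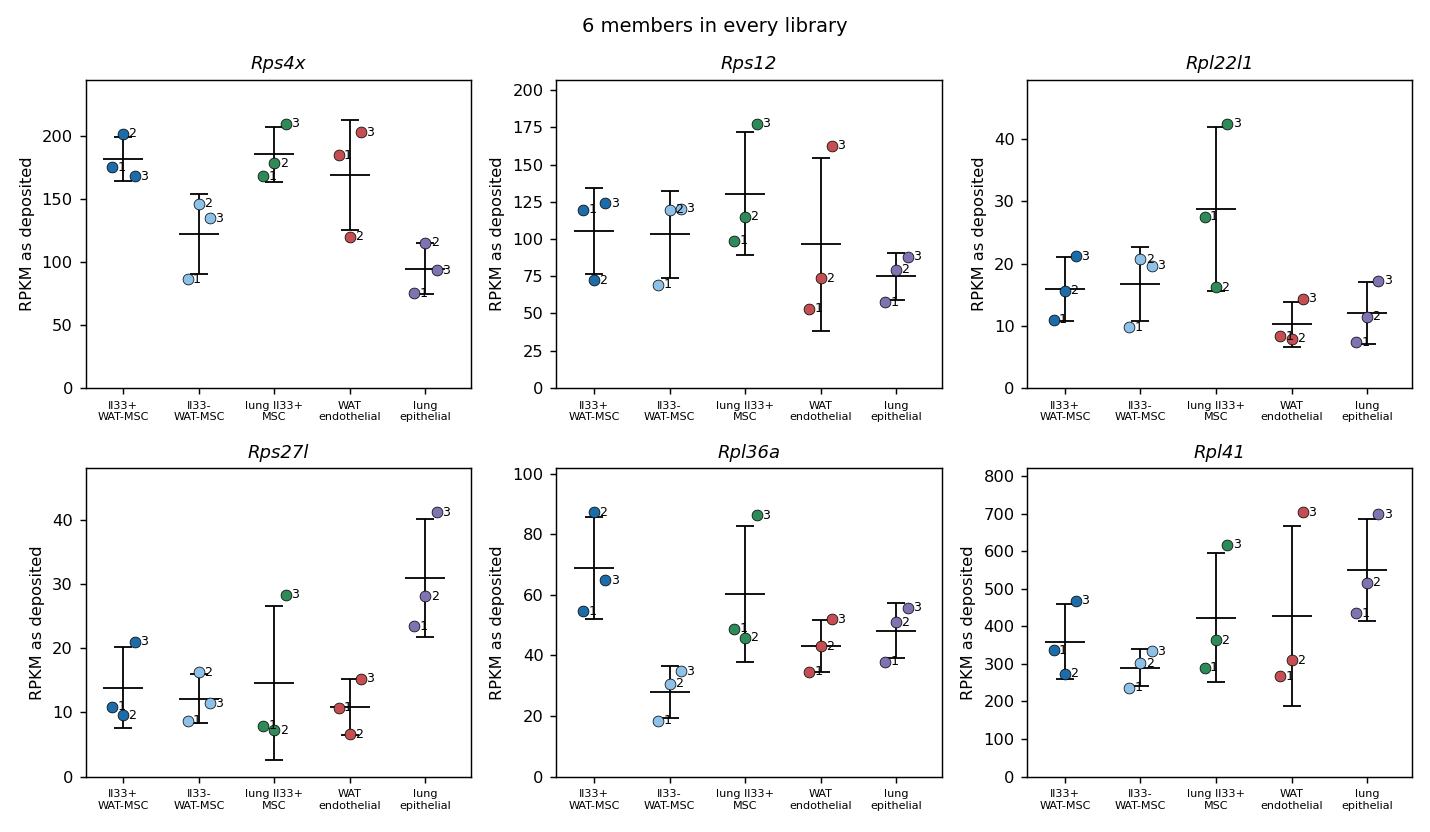
RPKM as deposited of Rps4x, Rps12, Rpl22l1, Rps27l, Rpl36a and Rpl41 in each library by population, with points numbered by replicate for the 3 libraries and bars for the mean and SD. Rps4x lies lower in epithelial cells (75.2 to 115) than in lung Il33+ MSC (168 to 210), and Rpl36a is lowest in Il33- WAT-MSC (18.4 to 34.8).

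The genes higher in epithelial cells with median-ratio scaling were, besides Rps27l, Rps19bp1 (1.15, adjusted p 0.0409 in limma), Rpl32 (0.85, adjusted p 0.0345), Rpl41 (0.78, adjusted p 0.0389), Rpl26 (0.76, adjusted p 0.0461) and Rpl11 (0.56, adjusted p 0.0311), a protein that with Rpl5 and 5S rRNA binds the p53 regulator Mdm2. As deposited these were 0.95, 0.49, 0.42, 0.43 and 0.20 and none passed. Rpl41 stood at 435, 516 and 698 RPKM in epithelial cells and at 290, 364 and 617 in lung Il33+ MSC, with overlap. Rps19bp1 was listed between 0.26 and 4.68 RPKM in these libraries, close to the filter of 1 RPKM, and its 17.1 RPKM in endothelial replicate 1 had no counterpart in the other libraries. Without lung Il33+ MSC replicate 3 and with scaling, 18 of the 91 genes were higher, beside 1981 of all 8830 genes tested. There the median was 0.41, beside 0.19 over all genes, and 57 genes lay wholly higher, beside 34.2% of all genes. Macrophage markers summed to 722 to 1394 RPKM in the epithelial libraries and to 195 to 242 in lung Il33+ MSC, with none of the 7 markers under 0.5 RPKM in all libraries of either. The 5 mesothelial markers summed to 81.8 to 156 against 4.28 to 7.7 RPKM, and the 7 endothelial markers to 43.3 to 64.9 against 24.8 to 38.8, and the part of these in the result was not tested. The macrophage markers were Lyz2, Chil3, Ear1, Ear2, Cd68, Csf1r and Marco, and the mesothelial ones Msln, Upk3b, Lrrn4, Upk1b and Krt19. A sum over such a list does not show which cells made the RNA, and the epithelial cells themselves may have made part of it.

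The stalk, which recruits elongation factors to the ribosome, is formed by Rplp0 and Rpl12 at its base and Rplp1 and Rplp2 at its tip. Rplp0 had means of 99.2 RPKM in Il33+ WAT-MSC, 89.7 in Il33- WAT-MSC, 96.0 in lung Il33+ MSC, 147 in endothelial cells and 89.3 in epithelial cells, and its endothelial mean rested on 242 RPKM in replicate 1 beside 61.5 and 137. Rpl12 ordered the populations as Il33+ WAT-MSC (106 ± 15.8, SD, n = 3), Il33- WAT-MSC (92.6 ± 4.7), then lung Il33+ MSC (72.5 ± 16.8), then endothelial (62.1 ± 16.1) and lung epithelial cells (56.8 ± 12.1), with overlapping libraries between neighbours in that order. Rplp1 ranged over means of 99.4 to 138 RPKM and Rplp2 over 39.0 to 57.4, and no stalk gene passed the adjusted threshold in any of the 4 comparisons as deposited.

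Genes that serve the ribosome in other ways had smaller median differences in Il33+ over Il33- WAT-MSC, and the difference between lists was not tested. The list called elongation genes also holds Naca, Btf3 and Tpt1, which are not elongation factors. As deposited, the median log2 difference was 0.14 for 13 elongation genes, 0.10 for 38 initiation genes, -0.14 for 45 ribosome biogenesis genes, -0.04 for 12 snoRNA host genes and -0.0039 for 59 mitochondrial ribosomal protein genes, beside 0.54 for the 91 genes. Of the 13 elongation genes 11 were positive and 4 lay wholly higher, beside 49.4% and 8.84% of all genes, and 0 lay wholly lower. No gene of these lists passed the adjusted threshold in limma in any of the first 3 comparisons as deposited. With median-ratio scaling Eif4g3, an initiation scaffold, was lower in Il33+ WAT-MSC (-0.87, adjusted p 0.0365 in limma).

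In epithelial cells over lung Il33+ MSC, the called counts of these lists stand beside 18.5% of all genes higher and 24.4% lower as deposited, and 24.7% and 19.3% with scaling. Of the 62 mitochondrial ribosomal protein genes 12 were higher and 0 lower, a share of higher genes near that of all genes, with a median of 0.52, among them Mrpl43 (2.02) and Mrpl14 (1.75). Of the 13 snoRNA host genes 0 were higher and 7 lower, with a median of -1.16, among them Snhg18 (-2.87) and Snhg12 (-2.45). Of 43 biogenesis genes 4 were higher, among them Polr1c (1.55), a subunit of RNA polymerases I and III, and Rrp1 (1.17), and 7 were lower, among them Myc (-3.52), a transcription factor that drives ribosome production, and Nop58 (-2.51), a core protein of box C/D snoRNPs. With scaling the counts higher and lower became 20 and 0 for the mitochondrial list, 0 and 6 of 12 for the snoRNA hosts, and 6 and 5 for biogenesis.

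Of 38 initiation genes fewer were called than among all genes (18.5% and 24.4%): 2 were higher, Eif2b2 (1.90), part of the exchange factor for eIF2, and Eif3b (1.14), a scaffold of eIF3, and 1 was lower, Eif4g1 (-0.86), the scaffold of the cap-binding complex. Of the 13 genes on the elongation list 0 were higher and 4 lower, among them Eif5a (-0.89) and Tpt1 (-0.74). With scaling, 5 initiation genes were higher and 0 lower. On the elongation list 2 were then higher, Naca and Btf3, and 0 lower, so the calls of lower genes on that list depended on the scale.

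**Figure D5:**
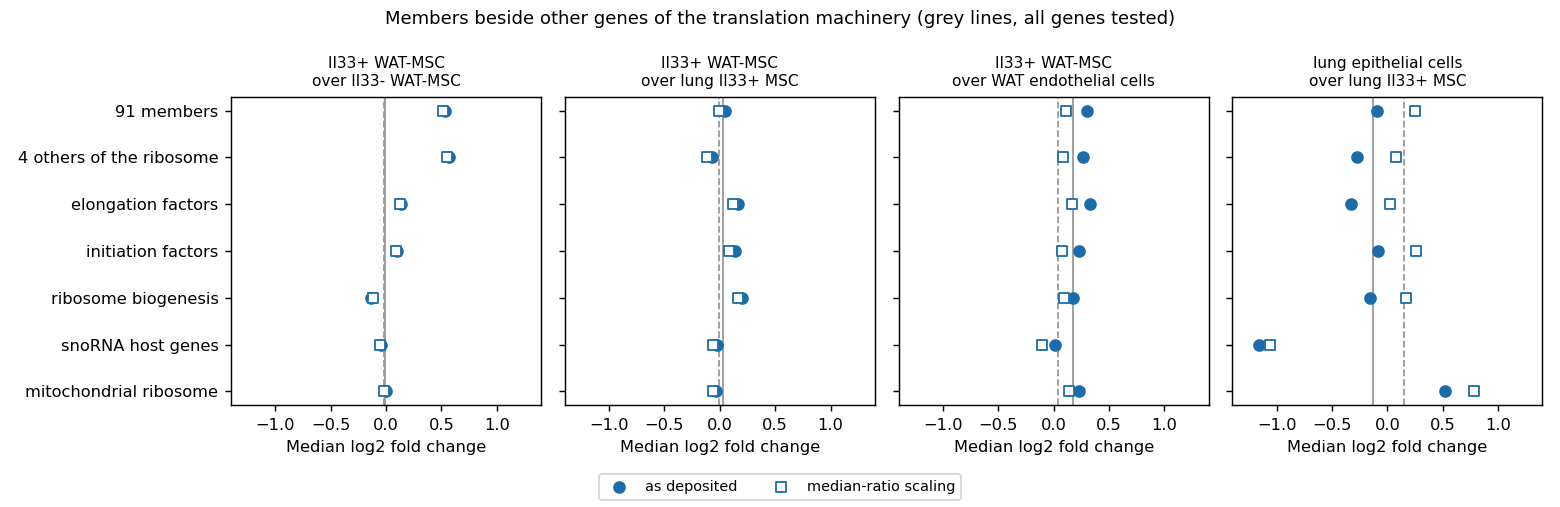
Median log2 difference of the ribosomal protein genes and of the other translation lists in each comparison, as deposited (filled circles) and with median-ratio scaling (open squares), with grey lines at the median of all genes tested. The list labelled elongation factors also holds Naca, Btf3 and Tpt1. In Il33+ over Il33- WAT-MSC the ribosomal protein genes lie at 0.54 and mitochondrial ribosomal protein genes at -0.0039, and in epithelial cells over lung Il33+ MSC snoRNA host genes lie lowest as deposited at -1.16.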

How the data were processed

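The authors sorted the cells, amplified the RNA (Ovation RNA-seq System V2), aligned the reads to mm10 with TopHat2 within Partek, per the submitters' processing notes, and deposited RPKM values for 12698 transcripts of 15 libraries with the alignments per library. RPKM normalizes by transcript length and mapped reads, and its depth per value was not used here. Transcripts of 1 symbol were summed. On log2(RPKM + 1), a linear model in limma 3.58.1 (R 4.3.3; lmFit, then eBayes with a mean trend) compared 2 populations at a time, 6 libraries, keeping genes that reached 1 RPKM in 3 or more of them. P-values were adjusted over all genes tested (Benjamini-Hochberg) and called under 0.05, and the script was tested on simulated data. All 91 genes passed this filter in every comparison. The naming rule and gene lists were chosen with earlier results of these data known. Genes named were the 5 largest called in each direction, the 5 highest and lowest by mean, the paralogs and stalk genes with partners, Rps24, and the 2 largest called per other list; further genes were chosen after their values were seen, and some genes are not reported here. Replicates are independent experiments per the labels, which do not say whether a number marks an experiment shared between populations. The main fits did not pair samples by number. Correlations of same-numbered deviations ran from -0.07 to 0.15, and were 0.04, 0.06 and 0.10 in the first comparison. They cannot decide whether the samples were paired. Alternatives were other scalings, filters, pseudocounts, transcript choices, a replicate block, lane, and each library left out. Shared windows were counted over GENCODE M21 transcripts, and promoters were read from RefSeq. Python 3.11.15, numpy 2.4.6 and pandas 2.3.3 were used.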

Additional observations from a re-analysis of the deposited data

How the results depend on the processing

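With 3 libraries a group, single libraries moved the values, and the depth behind single RPKM values is unknown here: in the first comparison 0 to 2 genes were called higher with 1 library left out, in the comparison with endothelial cells 0 to 1 (1 without endothelial replicate 3), and in that of epithelial cells with lung Il33+ MSC (the fourth) 0 to 18 higher and 0 to 3 lower, with a median log2 difference from -0.25 to 0.41 (with scaling 0.32 without epithelial replicate 2 and 0.29 without epithelial replicate 3). Over all genes, 65 of 8023 were higher in the fit with 2, 134 of 8115 in the endothelial fit with 1 and 1981 of 8830 in that with 18. In the first comparison the count higher, 0 as deposited, was 1 with median-ratio scaling, also when computed without the 91 genes, with all 15 libraries in one fit (1 with scaling too) and with the stricter filter of 5 RPKM, and 2 with quantile normalization. All-gene counts higher there were 115 of 8253 with scaling and 115 of 8246 when computed without the 91 genes. They were 72 of 8448 with all 15 libraries (84 of 8253 with scaling), 73 of 4473 with the stricter filter and 105 of 8490 with quantile normalization. Centring each library on the median of the family left a median of 0.024 in that comparison. In the fourth, the counts higher and lower were 6 and 1 with scaling, 6 and 1 when it was computed without the family, 43 and 0 with quantile normalization, 4 and 0 with scaling and all 15 libraries in one fit, and 1 and 6 with lane as a covariate; the count higher was 1 with all 15 libraries in one fit, 1 with the stricter filter and 3 after centring. For all genes the counts higher and lower were 2310 and 1807 of 9348 with scaling, and 2007 and 2215 of 9209 with quantile normalization. With lane as a covariate they were 1876 and 2514 of 9352. The all-gene counts higher were 1516 of 9352 with all 15 libraries, 1069 of 4846 with the stricter filter and 1814 of 9221 after centring. The median of the 91 genes in the fourth comparison was 0.25 with scaling, 0.26 without the family in the scale, 0.25 with scaling and all 15 libraries, and 0.60 with quantile normalization. The summed level of Il33+ WAT-MSC was 6549 with scaling, 6554 without the family in the scale and 6686 for canonical genes alone, and that of epithelial cells 7756 and 7796. The cause of these shifts was not tested. The median of the fourth comparison changed sign with scaling and, as deposited, without lung Il33+ MSC replicate 3 (0.079). That of the comparison with endothelial cells did so with scaling and without endothelial replicate 2 (-0.09). In the second comparison the median, 0.05 as deposited, was -0.0037 with scaling. As deposited it was -0.09 without lung Il33+ MSC replicate 1 and -0.04 without replicate 2. None of the genes followed by name through the alternatives changed sign, and the others were not followed. In the fourth comparison 35 of the 91 genes were positive as deposited, but 84 with quantile normalization, where 43 were called higher. Some genes called there therefore had the other sign as deposited.

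The replicate number was also fitted as a block, although the labels do not say whether the numbers pair the samples. This gave 4 genes higher in the first comparison, beside 143 of all 8448 genes, and 5 with scaling, beside 141 of 8253. In the fourth it gave 1 higher and 6 lower, beside 1817 and 2369 of all 9352 genes. With scaling 8 were higher there, beside 2374 of 9348, with a median of 0.25. The comparisons of Il33+ WAT-MSC with lung Il33+ MSC and with endothelial cells had 0 called with the block. Rps4x passed in 21 of 26 alternatives, Rps27l in 18, Rpl22l1 in 12, Rpl36a in 11 and Rps12 in 7. Centring, summing copies with their parent genes, leaving out libraries with scaling, and the pooled fit with scaling were chosen after seeing the data.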
